A study of Zea mays with 6 samples.

Results

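ROP proteins are small GTPases of plants, switches that are active when bound to GTP and inactive when bound to GDP. Exchange factors turn them on, GTPase-activating proteins turn them off, and active ROPs at the plasma membrane direct actin, microtubules, vesicle delivery and NADPH oxidases. In plant shoots they are known for polarised cell growth and for asymmetric divisions in the developing leaf epidermis. The family was taken as the probe sets whose single gene carries a name of the form rop followed by a number. This gave 8 genes with 1 probe set each, of 1108 genes and 1452 probe sets with a single gene name and 17621 probe sets in all. Of these genes rop9 lies on the short arm of chromosome 5, and rop1, rop2, rop3, rop4, rop5, rop6 and rop7 lie elsewhere.

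The study asked how an unbalanced dose of 1 chromosome arm alters transcripts in maize shoot tips. DpDf (duplicate-deficient) plants descend from the translocation T5-6b. They carry 3 copies of about 90% of the chromosome 5 short arm and 1 copy of the end of the chromosome 6 short arm, against 2 copies of both in their wild-type siblings. Both genotypes are in the B73 inbred background and were sampled at 14 days, as pools of 8 plants, with 3 DpDf pools and 3 wild-type pools on 1 array each. The sample was about a centimetre of shoot tip that held the meristem and leaf primordia, so several cell types are mixed in each pool. In such tissue, fewer cells of a type and less RNA per cell cannot be told apart.

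Wild type replicate 3 stood apart from the other arrays. Spearman's correlation of its probe sets with those of any other array reached 0.932 at most, and no pair of the other 5 arrays fell below 0.988. Over the 10661 probe sets that passed the filter on low values, its median log2 shift from the mean of wild type replicates 1 and 2 was -0.45. The median log2 difference of DpDf minus wild type was 0.18 with all 6 arrays and 0.02 without this pool, so each result is given both ways. RNA quality also moved with genotype: the 3' over 5' signal of 5 maize control transcripts averaged 1.08 ± 0.35 in the DpDf pools and 0.59 ± 0.18 in the wild-type pools (log2, SD, n = 3 each), with no overlap, and its part in the results was not tested. Of the meristem markers measured, kn1, a homeobox gene of the shoot meristem, lay above the background bound (the 40th percentile of its array) on all 6 arrays. It was 1 of 4 meristem markers to do so, and abph1 lay below that bound on every array. Counted by gene, all 5 green leaf markers and 7 of 12 leaf primordium markers lay above it on all 6 arrays. The leaf marker pdk1 has several probe sets, and 1 of them lay below that bound on every array. None of the 4 root markers listed was measured. The summed intensity of the leaf markers was 27310 to 28766 in DpDf and 21780 to 27278 in wild type. That of the primordium markers was 14116 to 14742 in DpDf and 10750 to 14357 in wild type, and that of the meristem markers 1834 to 2668 in DpDf and 1817 to 2291 in wild type. Wild type replicate 3 had the lowest wild-type sum of each list. Wild type replicates 1 and 2 alone gave 26425 to 27278 for leaf, 13898 to 14357 for primordium and 2055 to 2291 for meristem markers. The leaf marker sums did not overlap between genotypes either way, though without wild type replicate 3 the gap was narrow. The median log2 difference of the leaf marker probe sets was 0.20 with all 6 arrays and 0.03 without that pool. The part of the marker differences in the results was not tested.

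The gene rop9 (LOC542094) was brighter in every DpDf pool than in any wild-type pool. Its intensity was 3739, 4034 and 3676 in DpDf replicates 1 to 3, against 2552, 2633 and 2319 in wild type replicates 1 to 3. The groups did not overlap, and the gap between them was wider than the spread within either. Mean intensity was 3816 ± 191 in the DpDf pools and 2501 ± 163 in the wild-type pools (SD, n = 3 each). Pools that share a replicate number were grown in 1 planting, and within plantings the DpDf pool was 1.47, 1.53 and 1.59 times its wild-type sibling pool. A change of dose from 2 to 3 copies corresponds to a ratio of 1.5. The 1.59 was taken against wild type replicate 3, whose array read low. In that planting the ratio was higher still for rop7 (2.01), rop3 (1.85), rop6 (1.74) and rop1 (1.67). It was lower than that of rop9 for rop5 (1.31), rop2 (1.27) and rop4 (1.14).

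In the fit of limma across all probe sets, the log2 difference of rop9 (DpDf minus wild type) was 0.61 with all 6 arrays (95% interval 0.32 to 0.90, adjusted p = 0.302). This did not pass the threshold of 0.05 after Benjamini-Hochberg adjustment, at which 0.0281% of probe sets were called. Before adjustment rop9 was under 0.05, as were 9.76% of all probe sets. Leaving out wild type replicate 3 gave 0.56 (95% interval 0.38 to 0.74), a 1.47-fold rise that passed (limma adjusted p = 0.0185), in a setting where 3.33% of probe sets were called and 3.07% were called higher in DpDf. The call was lost when replicate 3 of both genotypes was left out and planting was a block (difference 0.58, limma adjusted p = 0.0959). The 95% intervals of these 3 fits included 0.585, the log2 ratio of 3 copies over 2, and excluded 0. A two-sided exact permutation test gave p = 0.1, the smallest value that 3 against 3 arrays allow.

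**Figure D1:**
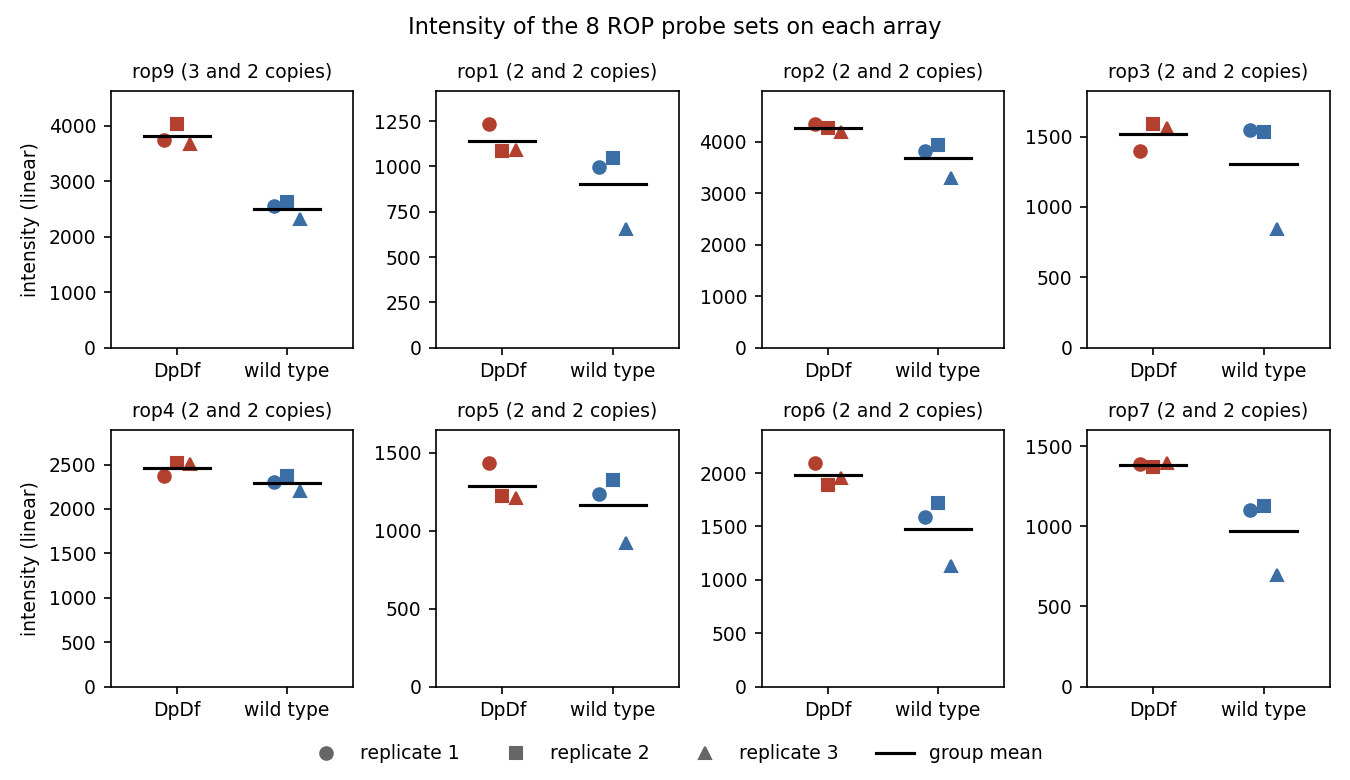
Linear intensity of the probe set of each ROP gene (vertical axis from 0) on each of the 6 arrays, with DpDf pools left and wild-type pools right. Marker shapes show the replicate number and horizontal lines the group means. The rop9 pools separate at 3676 to 4034 in DpDf and 2319 to 2633 in wild type, while wild type replicate 3 is the lowest pool for all 8 genes.

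The other members lie off the duplicated arm and were taken to have 2 copies in both genotypes. Both rop3 and rop6 lie on chromosome 6. Whether either falls within the end of its short arm, which has 1 copy in DpDf, was not checked. None of the 7 other members was called in either setting. Their median log2 difference was 0.26 with all 6 arrays (range 0.10 to 0.54), against 0.18 over all probe sets tested. Without wild type replicate 3 it was 0.14 (range -0.03 to 0.32), against 0.02. The median moved with the arrays used and their scaling, to 0.41 without wild type replicate 1 or 2 and to 0.0683 with quantile normalization. Whether or not wild type replicate 3 was kept, 5 of the 7 lay above the median of all probe sets. When that pool was left out, the 95% intervals of all 7 ended below 0.585. With all 6 arrays those of 3, rop2, rop4 and rop5, did so.

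ROPs fall into a class that is prenylated at its C-terminus and a class anchored by S-acylation. Among those of the prenylated class, rop2 (LOC542618, chromosome 4) is a close relative of rop9 and is known in maize for its role in pollen. It read 4346, 4276 and 4191 in DpDf replicates 1 to 3, against 3824, 3943 and 3302 in wild type replicates 1 to 3. Its DpDf pools were all brighter than its wild-type pools, by a smaller margin than for rop9 on the ratio scale. Its log2 difference was 0.22 with all 6 arrays (95% interval -0.08 to 0.51, limma adjusted p = 0.562) and 0.14 without wild type replicate 3 (-0.03 to 0.30, limma adjusted p = 0.306). Probe sequences were not used here, so whether the rop2 probe set also takes up rop9 transcripts was not tested.

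Both rop1 and rop4 lie on chromosome 5 as rop9 does, but beyond the duplicated arm. For rop1 (LOC541773) the intensities were 1234, 1088 and 1093 in DpDf, against 999.7, 1048 and 655 in wild type. All DpDf pools were higher, yet replicate 2 of the genotypes differed by only 1.04 times. The log2 difference of rop1 was 0.37 over all 6 arrays and 0.15 with wild type replicate 3 left out (limma adjusted p = 0.562 and adjusted p = 0.355). For rop4 (LOC542739) they were 2370, 2517 and 2508 in DpDf, against 2301, 2375 and 2207 in wild type. The pools of rop4 overlapped, and its log2 difference was 0.10 over all 6 arrays and 0.08 with wild type replicate 3 left out (limma adjusted p = 0.654 and adjusted p = 0.565). It was also the member in which wild type replicate 3 departed least from the other wild-type pools, at 0.944 times their mean.

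For rop3 (LOC541774, chromosome 6) the DpDf pools read 1401, 1589 and 1558, and the wild-type pools 1548, 1535 and 842.1. Its last wild-type pool was 0.546 times the mean of the other wild-type pools, the largest such departure in the family. That pool set the sign of the difference: rop3 lay at 0.26 with all 6 arrays and at -0.03 without it (limma adjusted p = 0.611 and adjusted p = 0.873). The gene rop5 (LOC542758, chromosome 9), which the annotation also lists under the name rop4, read 1435, 1222 and 1210 in DpDf and 1237, 1328 and 922.8 in wild type. Its pools overlapped too, and the log2 difference was 0.16 over all 6 arrays and 0.0037 with wild type replicate 3 left out (limma adjusted p = 0.646 and adjusted p = 0.984).

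The S-acylated class is represented by rop6 and rop7, and these had the largest differences among the paralogs. For rop6 (LOC542017, chromosome 6) the intensities were 2094, 1890 and 1957 in DpDf, against 1593, 1722 and 1126 in wild type. Its DpDf pools were all higher, and the log2 difference was 0.44 with all 6 arrays (limma adjusted p = 0.505) and 0.26 without wild type replicate 3 (95% interval 0.06 to 0.45, limma adjusted p = 0.153). The corresponding intensities of rop7 (LOC542503, chromosome 8) were 1389, 1367 and 1394 in DpDf, against 1099, 1124 and 693.5 in wild type. DpDf pools of rop7 lay closer together than those of any other member, with a log2 SD of 0.02. The log2 difference of rop7 was 0.54 with all 6 arrays (limma adjusted p = 0.469) and 0.32 without wild type replicate 3 (95% interval 0.16 to 0.48, limma adjusted p = 0.0603). Both genes had an unadjusted limma p under 0.05 in each setting, as did 9.76% of all probe sets with 6 arrays and 20.3% without wild type replicate 3.

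**Figure D2:**
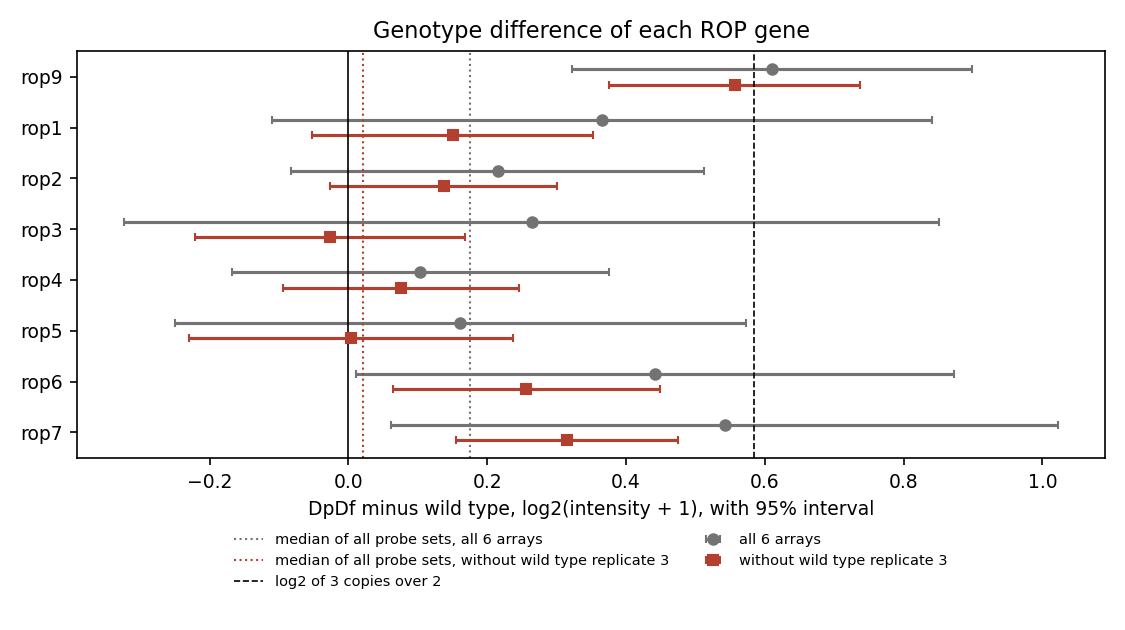
Log2 difference of each ROP gene (DpDf minus wild type, horizontal axis) with its 95% interval from limma, for all 6 arrays (grey circles) and without wild type replicate 3 (red squares). Dotted lines mark the medians of all probe sets tested, 0.18 and 0.02, and the dashed line 0.585, the log2 of 3 copies over 2. Both rop9 intervals cross the dashed line, and the red intervals of all 7 paralogs end left of it.

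Across the family, 5 of the 8 genes (rop9, rop1, rop2, rop6 and rop7) had every DpDf pool above every wild-type pool, both with all 6 arrays and once wild type replicate 3 was left out. Over all probe sets tested, 23.2% showed this pattern with all 6 arrays and 25.4% without that pool. The signal of every member was over the background bound on all arrays, the lowest being rop1 in wild type replicate 3 at 2.11 times it. All 8 members therefore passed the filter.

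The share of rop9 in the summed intensity of the family was larger in DpDf. It was 20.8%, 22.4% and 20.9% in DpDf replicates 1 to 3, against 16.8%, 16.8% and 19.2% in wild type replicates 1 to 3. The groups did not overlap, although wild type replicate 3 stood nearer to the DpDf pools than the other wild-type pools did. Means were 21.4 ± 0.93% in the DpDf pools and 17.6 ± 1.40% in the wild-type pools (SD, n = 3 each). The gain was 3.76 percentage points over all 6 arrays and 4.56 with wild type replicate 3 left out. Probe sets bind with different efficiency, so these are shares of signal, not of transcripts, and only their change between genotypes can be read.

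Summed over the 8 probe sets, intensity was 18008, 17983 and 17587 in DpDf and 15154, 15708 and 12067 in wild type. The 7 paralogs alone summed to 14269, 13949 and 13911 in DpDf, against 12602, 13075 and 9748 in wild type. Both sums were higher in every DpDf pool. The paralog sum in DpDf was 1.19 times that in wild type with all 6 arrays and 1.09 times without wild type replicate 3. These sums include any shift of the whole array. The mean log2 value of the 7 paralogs was 0.30 higher in DpDf with all 6 arrays and 0.13 higher without wild type replicate 3. The median log2 value of all probe sets kept was itself higher, by 0.19 and 0.04. Among single paralogs, the shares of rop2 and rop4 were lower in every DpDf pool than in any wild-type pool (rop2 23.9 ± 0.19% in DpDf and 25.9 ± 1.27% in wild type, rop4 13.8 ± 0.57% in DpDf pools and 16.2 ± 1.81% in wild-type pools, SD, n = 3 each). That of rop7 was higher in every DpDf pool, at 7.75 ± 0.16% in DpDf and 6.72 ± 0.84% in wild type. Leaving out wild type replicate 3 brought these differences in share (DpDf minus wild type) to -1.25 points for rop2, -1.35 for rop4 and 0.54 for rop7, from -1.99, -2.39 and 1.03.

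**Figure D3:**
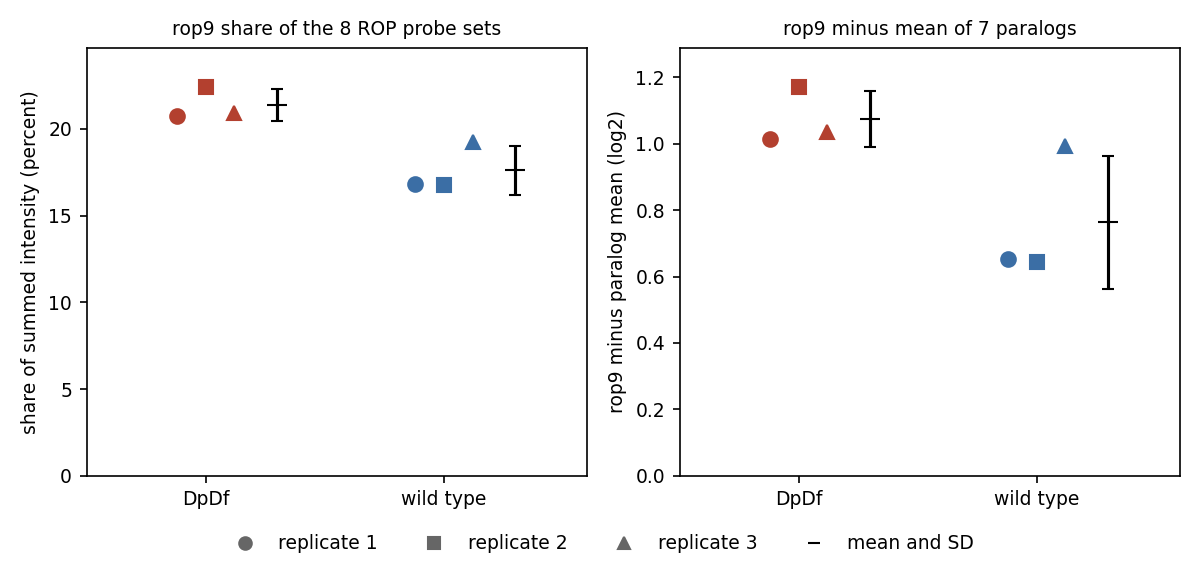
Left, rop9 as a percent of the summed intensity of the 8 ROP probe sets on each array. Right, log2 value of rop9 minus the mean log2 value of the 7 paralogs on the same array. Black bars give the mean and SD of 3 pools. DpDf pools lie above wild-type pools in both panels, and wild type replicate 3 (triangle, 19.2% and 0.99) lies between the other wild-type pools and the DpDf pools.

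A difference taken within an array cancels a shift that all its probe sets share. The departure of wild type replicate 3 was not shared evenly and so is not cancelled. Its log2 shift from the other wild-type pools was -0.16 for rop9, and ran from -0.08 for rop4 to -0.87 for rop3. The log2 value of rop9 minus the mean of its paralogs was 1.01, 1.17 and 1.04 in DpDf and 0.65, 0.64 and 0.99 in wild type. DpDf exceeded wild type by 0.31 over all 6 arrays and by 0.43 with wild type replicate 3 left out, the first of which was larger than the SD among pools of either genotype (0.09 in DpDf and 0.20 in wild type). Set against the median of all probe sets on its array, rop9 lay at 1.73, 1.84 and 1.75 in DpDf and 1.22, 1.29 and 1.55 in wild type, a difference of 0.42 (exact permutation test, two-sided, p = 0.1) and, without wild type replicate 3, of 0.52 (exact permutation p = 0.2, the smallest that 3 against 2 allow).

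Taken 1 paralog at a time, 7 differences were compared. The DpDf minus wild type difference of rop9 minus a paralog ran from 0.07 for rop7 to 0.51 for rop4. DpDf pools lay wholly above wild-type pools for 3 of them, rop2, rop4 and rop5. For rop2, the difference within an array was -0.22, -0.08 and -0.19 in DpDf and -0.58, -0.58 and -0.51 in wild type, so that here wild type replicate 3 lay beside its group. The same held for rop4, at 0.66, 0.68 and 0.55 in DpDf and 0.15, 0.15 and 0.07 in wild type. Without wild type replicate 3 all 7 separated, by 0.24 for rop7 to 0.58 for rop3. Each of the 7 holds the same rop9 values, and in that setting rop9 had a larger difference than 98.1% of probe sets. How many of all probe sets separate from rop9 in this way was not counted, with or without that pool. No adjusted value could pass with so few arrays (exact permutation, two-sided, adjusted over the 7 pairs: p = 0.233 to 0.7 with all 6 arrays and p = 0.2 for each without wild type replicate 3). For rop7 the 0.07 seen with all 6 arrays was smaller than the SD of this difference among wild-type pools, 0.30.

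Among the arm genes, rop9 sat close to the proximal end of the segment. Of 46 measured and named genes of the arm, 44 lay between rop9 and the tip, and 1, the ribosomal protein gene csu36b(rpL19), lay beyond it. That gene differed by 0.85 over all 6 arrays and 0.62 with wild type replicate 3 left out (limma adjusted p = 0.0155 in that setting). The nearest measured gene toward the tip, gtc102, differed by 0.53 and 0.42 (limma adjusted p = 0.0928 without wild type replicate 3). The next genes outside the arm as set here were 4CL, which encodes 4-coumarate-CoA ligase, at 0.07 and 0.10, and RR9, a response regulator gene, at 0.26 and 0.16 with and without that pool, neither called. The labels place the break by cytology, so the copy number of rop9 rests on its place in the annotation and was not measured directly.

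Relative to the arm, rop9 ranked 15 of 46 by difference with all 6 arrays, where the arm median was 0.56 and the quartiles 0.46 and 0.65. Without wild type replicate 3 it ranked 7 of 46, with an arm median of 0.40 and quartiles of 0.28 and 0.52, and was 1 of 18 arm genes called by the probe set standing for them, in a setting where 3.33% of all probe sets were called. With all 6 arrays 0 of the 46 were called. Among 744 placed genes elsewhere, 12 had a larger difference than rop9 over all 6 arrays and 10 with wild type replicate 3 left out. The rest of chromosome 5, which holds rop1 and rop4, had medians of 0.11 and 0.04 over 46 genes.

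**Figure D4:**
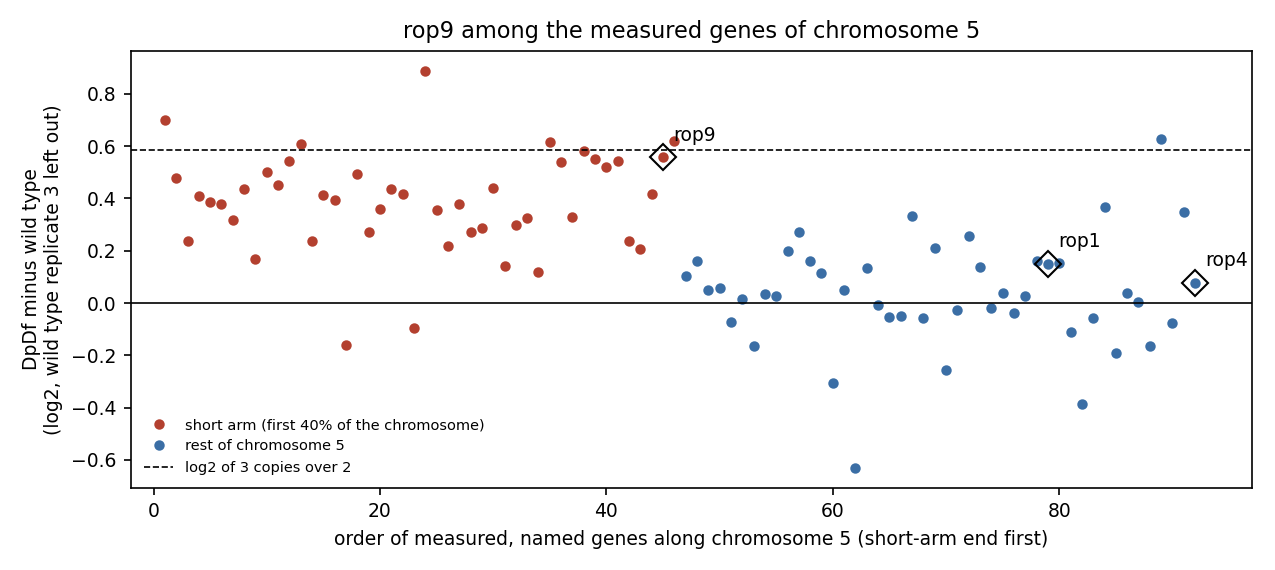
Log2 difference (DpDf minus wild type, wild type replicate 3 left out) of each measured and named gene of chromosome 5, in order from the end of the short arm. Red points are arm genes, blue points the rest of the chromosome, diamonds the ROP genes, and the dashed line is the log2 of 3 copies over 2. The differences drop after the gene next to rop9 (0.56), and rop1 (0.15) and rop4 (0.08) lie among the blue points.

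The genes whose pattern over the arrays was most like that of rop9 were also arm genes. Likeness was the root mean square difference between log2 values, each centred on its own mean, over 977 named probe sets. It used the same arrays as the genotype difference, so it largely restates that difference and is not separate evidence. Of the measured and named genes with a place, 46 lie on the arm and 744 elsewhere. Over 6 arrays the 5 nearest were ivr2, an invertase gene (0.05), psiP (0.09), the calcium-dependent protein kinase gene cdpk1 (0.09), arf1 (0.10) and the gene listed as Snf-4 like (0.10). Over the 5 arrays without wild type replicate 3 they were psiP (0.03), the protein disulfide isomerase gene pdi4 (0.03), PLC (0.04), ohp2, which encodes a bZIP partner of Opaque2 (0.05), and ivr2 (0.05). All of these lie on the arm by the annotation. The ROP paralogs were less like it: over 6 arrays rop6 ranked 62 and rop7 76, and rop2, the close relative, 121. Without wild type replicate 3 rop7 ranked 39, rop6 83 and rop2 168.

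Few partners of ROP signalling could be followed. Of the pathway list 3 genes were named on the array, and 2 passed the filter, of which 0 were called in either setting, where 0.0281% and 3.33% of all probe sets were. The gene brk1 (LOC542086), a subunit of the SCAR complex that acts on actin in lobing epidermal cells, read 2354, 1653 and 1828 in DpDf and 1428, 1601 and 1008 in wild type. All DpDf pools of brk1 were higher, DpDf replicate 1 most of all, and its log2 difference was 0.54 over all 6 arrays and 0.35 with wild type replicate 3 left out (limma adjusted p = 0.499 and adjusted p = 0.257). This gene lies on chromosome 5 outside the arm. The NADPH oxidase gene rbohB read 786.1, 774.2 and 577.3 in DpDf and 584.4, 569.8 and 438.7 in wild type, groups that overlap, with a log2 difference of 0.42 and, without wild type replicate 3, 0.29 (limma adjusted p = 0.525 and adjusted p = 0.291). Signal of tan1, a gene needed to orient division planes, was 73.03 to 85.46 on all arrays and did not pass the filter.

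Among other small GTPases, 4 probe sets of 3 genes were tested. With all 6 arrays 0 were called, as against 0.0281% of all probe sets. Without wild type replicate 3 arf1 rose, by 0.38 (limma adjusted p = 0.045), and it was the 1 called where 3.33% of all probe sets were. It is an arm gene, with intensities of 8457, 7955 and 7984 in DpDf and 6072, 6428 and 5335 in wild type. The other 3 probe sets, of genes of the Rab branch that guides vesicle traffic, lay between 0.09 and 0.26 with all 6 arrays and between -0.03 and 0.16 in the second setting. The median of the list was 0.19 with all 6 arrays (0.18 over all probe sets) and 0.10 without that pool (0.02 over all probe sets).

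Genes of the cytoskeleton, on which ROP signalling acts, gave 23 probe sets of 15 genes that passed the filter, out of 31 probe sets of 20 genes. With all 6 arrays 0 were called (median difference 0.11, against 0.18 over all probe sets, range -0.49 to 0.47). Once wild type replicate 3 was left out 1 was called higher and 0 lower, where 3.07% of all probe sets were called higher and 0.263% lower (median 0.06, against 0.02 over all, range -0.56 to 0.49), and the 1 was an arm gene. It was the beta-tubulin gene tub4, with intensities of 13330, 12122 and 12907 in DpDf and 8571, 9625 and 9463 in wild type (log2 difference 0.49, limma adjusted p = 0.0326). Before adjustment 1 of the 23 had a limma p under 0.05 with all 6 arrays, where 9.76% of all probe sets did, and 5 did so in the second setting, where 20.3% did. Both genes called on the 3 lists lie on the arm by the annotation.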

How the data were processed

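The intensity values deposited by the authors are on a linear scale, with 1 for each probe set on each array. GCOS 1.2 and GCRMA are named in the submitters' processing notes, and the role of each is not given in the sources used here. Per the labels' protocols, total RNA was labelled with biotin by a one-cycle kit. Names came from the platform's probe table, updated by gene identifier with RefSeq symbols and synonyms of Zm-B73-REFERENCE-NAM-5.0, which served for names, gene order and the arm (the first 40% of chromosome 5). The probe set of highest mean stood for a gene. Precision is limited by the number of arrays.

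Controls (113 probe sets) were set aside. Values became log2(intensity + 1), and probe sets that reached the array's 40th percentile on 3 or more of 6 arrays were kept (10661, or 60.5%). Limma 3.58.1 in R 4.3.3 compared 2 groups (lmFit, eBayes, no block, Benjamini-Hochberg over all probe sets kept, threshold 0.05), and was tested on simulated data. Exact permutation tests used scipy 1.17.1. Alternatives were leaving out each array, quantile normalization, a pseudocount of 32, no filter and the replicate block.

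Pools of a replicate number came from the same planting per the labels, which pairs them, and deviations from group means correlated at 0.08, -0.16 and 0.20. The members and lists were chosen with earlier results of these data known. Every ROP probe set is named, then called list members or, where a list had none, up to 4 by smallest p, and the 5 named probe sets most like rop9. Of the names matched, 1 dehydrin and 2 auxin-binding protein genes share symbols with the lists and were left out.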

Additional observations from a re-analysis of the deposited data

How the results depend on the processing

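Leaving out wild type replicate 3 was the one setting of 11 that brought rop9 past the threshold (difference 0.56, limma adjusted p = 0.0185, against p-values of 0.0959 to 0.835 in the others). It also raised the probe sets called from 3 to 355, and those called on the 3 lists from 0 to 2. Leaving out single arrays gave rop9 differences of 0.56 to 0.65, and 2 to 355 probe sets called. The lowest rop9 difference was 0.46, with quantile normalization. Directions turned for 3 paralogs, none called: rop3 lay at -0.0262 without wild type replicate 3 (-0.0262 to 0.41 over single arrays left out) and at -0.0470 with replicate 3 of both groups out and the replicate block in, and with quantile normalization rop4 lay at -0.0742 and rop5 at -0.0268. The causes were not tested. The replicate block with all 6 arrays left the rop9 difference at 0.61 (limma adjusted p = 0.309) and changed no call among the members. The gain of rop9 in share stayed at 3.23 to 4.80 percentage points, and its difference from the paralog mean at 0.25 to 0.44. With 1 probe set a gene and all members kept, the settings on summed probe sets and on filtered members left these values as they were.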
